A study of Mus musculus with 2 samples.

Results

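Dpp4+ fibroblasts of mouse dorsal skin were described in single-cell RNA-seq of 1 control (Ctrl) library and 1 library from skin with AD-like dermatitis (AD). A cell was taken as a Dpp4+ fibroblast when it had 200 to 6000 genes, at most 10% mitochondrial UMIs (unique molecular identifiers, each standing for 1 captured transcript), at least 1 UMI of Pdgfra, a receptor that marks fibroblasts, and at least 1 UMI of Dpp4. It also had to lack Ptprc and Pecam1, which mark leukocytes and endothelium, and to hold fewer than 2 UMIs in all of Fmo2, F3 and Gdf10 and fewer than 2 in all of Crabp1, Dkk2 and Prdm1, which mark other fibroblast subsets. The cells were thus chosen by their measured levels of 10 genes, and these genes are given as a description only. Of 19578 cells that passed the filter, 10247 met the conditions on Pdgfra, Ptprc and Pecam1, and 2602 of these were Dpp4+ fibroblasts. They numbered 1906 of 5353 Pdgfra+ cells in Ctrl (35.6%, 95% Clopper-Pearson interval 34.3 to 36.9) and 696 of 4894 in AD (14.2%, 13.3 to 15.2). The lower share in AD is a readout of the rule itself, and fewer such cells and less Dpp4 mRNA per cell cannot be told apart. With no limit on the genes of the other subsets, a Dpp4 UMI was found in 55.4% and 32.5% of the Pdgfra+ cells, a smaller relative difference than under the whole rule. Cells with 2 or more UMIs of Fmo2, F3 and Gdf10 numbered 1024 in Ctrl and 2555 in AD, and Pdgfra+ cells had a median of 9048 and 6878.5 UMIs.

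Both libraries were made from dorsal skin of C57BL/6J females, 7 weeks old, depilated with cream on the day before the first application. Ctrl mice received the ethanol vehicle alone and AD mice received MC903 (calcipotriol), an analogue of vitamin D, at 4.5 nmol per application. Applications were made daily for 10 days and skin was taken on day 10. The cells came from collagenase digests after removal of dead cells, and the number of mice behind each library was not given in the sources used here.

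The Dpp4+ fibroblasts held 19321920 UMIs in Ctrl (median 9602 per cell) and 4842086 UMIs in AD (median 6791.5 per cell). With 1 library per condition, no spread between replicates could be measured, no test was made, and intervals (95%) account for counting error alone. Levels are in CPM, that is, UMIs of a gene per 1000000 UMIs of the same class of cells. Since each transcript is counted once from its 3′ end, CPM was not divided by gene length. Levels are compared for 1 gene between groups of cells, except where a gene is called highest in level or most abundant, which rests on CPM alone. A gene was compared when it reached 20 CPM in either group, and was counted as higher or lower when the ratio, with 1 CPM added to both levels, reached 2-fold. Medians over genes also include this 1 CPM. Of the barcodes, 35 occurred in both libraries, and 2 Dpp4+ fibroblasts in Ctrl and 4 in AD carried one of them.

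Dpp4 encodes a membrane peptidase (CD26) that cleaves peptide hormones and several chemokines. Dpp4+ fibroblasts that express Pi16 are known from the interstitial and adventitial connective tissue of many organs, where they lie in fascia and around vessels and can give rise to other fibroblasts and to adipocyte precursors. Fibroblasts build the collagen network of the dermis, and in inflamed skin they also release chemokines that attract leukocytes.

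The markers that go with the name of interstitial adventitial fibroblasts were only partly kept in AD. Col14a1, a collagen that binds the surface of fibrils, stood at 631 CPM in Ctrl against 136 CPM in AD, with a log2 ratio of AD over Ctrl of −2.21 (−2.33 to −2.10). Anxa3, a phospholipid-binding annexin, stood at 488 and 254 CPM, with a log2 ratio of −0.94 (−1.03 to −0.85). Plac8 stood at 565 and 541 CPM, with a log2 ratio of −0.06, close to 0. Cxcl13, a chemokine for B cells, went the other way, from 420.1 to 5955 CPM, with a log2 ratio of 3.83 (3.79 to 3.86). The ratio of Cxcl13 was 3.83 in the other Pdgfra+ cells as well, at 157 and 2229 CPM. At least 2 of these 4 markers were found in 58.9% of the Dpp4+ fibroblasts of Ctrl and 86.1% of those of AD, and in 31.2% and 48.8% of the other Pdgfra+ cells. Among the latter, cells with 2 or more UMIs of Fmo2, F3 and Gdf10 gave 65.6% in Ctrl, above the Dpp4+ fibroblasts, and 60.4% in AD. The share in T cells, which served as background for free RNA, was 0.909% and 0.407%, at median depths of 3275.5 and 6219 UMIs, and in endothelial cells 4.14% and 5.705%, at 5658.5 and 8385 UMIs. With each cell thinned to 2000 UMIs, which left out 40 Ctrl and 29 AD Dpp4+ fibroblasts with fewer, the shares in Dpp4+ fibroblasts were 46.2% and 65.5%, against 48.03% and 37.5% in the cells with Fmo2, F3 and Gdf10. Cxcl13, itself found in 36.99% and 87.9% of the Dpp4+ fibroblasts, is one of the 4. None of the 4 was found in 21.98% of the Ctrl and 4.74% of the AD Dpp4+ fibroblasts. Because the markers went different ways, the cells are called Dpp4+ fibroblasts here, after the rule.

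A threshold of 1 UMI admits cells of low Dpp4. Exactly 1 Dpp4 UMI was carried by 30.2% of the Dpp4+ fibroblasts of Ctrl and 43.7% of those of AD. In Ctrl, Anxa3 stood at 31.6 CPM in cells just outside the rule, with no Dpp4 UMI, at 83.4 CPM in those just inside it, with 1 UMI, and at 947 CPM in those with 6 or more. Smpd3, a neutral sphingomyelinase, stood at 6.72, 29.5 and 782 CPM in the same cells, and Cxcl13 at 19.3, 46.7 and 821 CPM. Col1a1, the chain that makes up most of type I collagen, stood, in the same order, at 14726, 17959 and 5197 CPM. Its level was thus higher with 1 UMI than with none and lower at 6 or more. Ctrl cells with 6 or more Dpp4 UMIs held more of these markers and less Col1a1 than the others, and they were also deeper, with a median of 11513 UMIs against 7665 UMIs for those with 1. In AD, Col1a1 stood at 809 CPM without Dpp4, 358 CPM with 1 UMI and 293 CPM with 6 or more, below every Ctrl step. At the limit on Fmo2, F3 and Gdf10, Col1a1 in Ctrl stood at 5940.0 CPM in Dpp4+ fibroblasts with 1 UMI and 5175 CPM in the 166 Dpp4+ cells left out with 2, and at the limit on Crabp1, Dkk2 and Prdm1 it stood at 15920.0 and 20598 CPM.

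**Figure D1:**
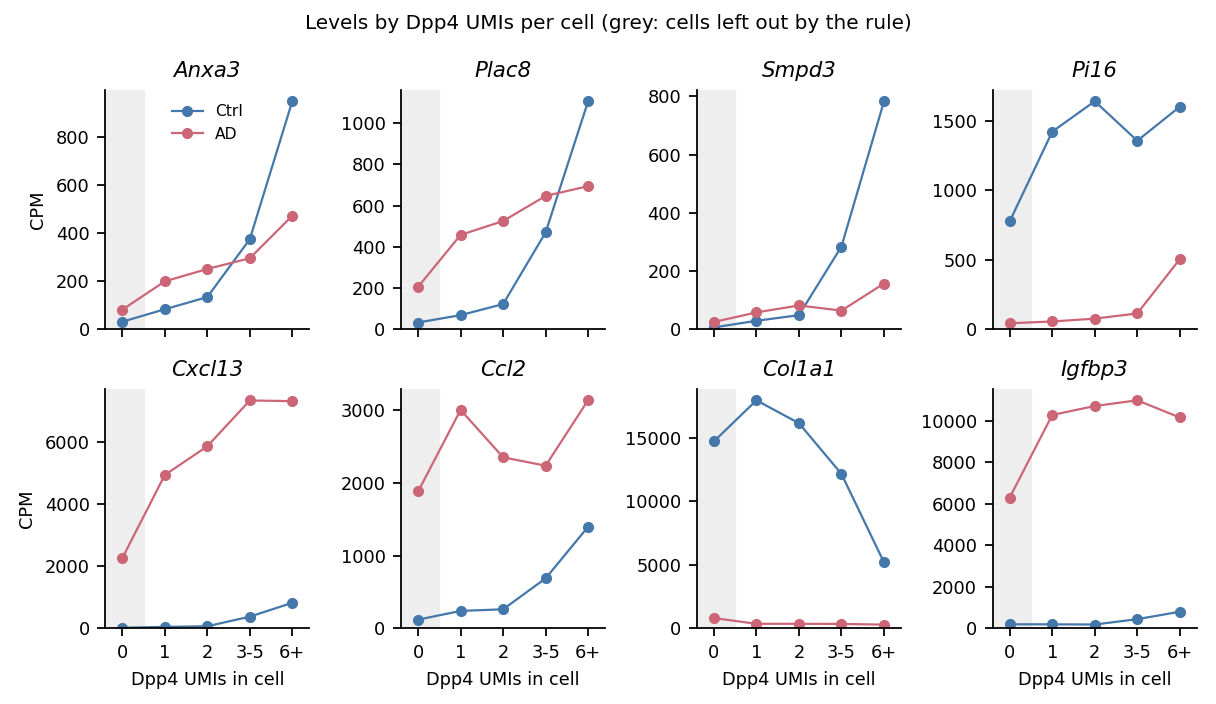
Levels of 8 genes (CPM, linear axis) by the number of Dpp4 UMIs a Pdgfra+ cell carried, in Ctrl and AD, with cells of 0 UMIs, outside the rule, in grey. Anxa3, Smpd3 and Cxcl13 were higher at each further step in Ctrl, and Col1a1 in AD stayed below every Ctrl step.

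Between the libraries, the Dpp4+ fibroblasts of AD held less mRNA of most collagens and of most elastic fibre and adventitial genes compared, and more of Cxcl13, Mt1 and Igfbp3. Of 6914 genes compared, 703 were higher in AD (10.2% of those compared) and 898 were lower (13.0%), so that higher genes made up 43.9% of both. The median log2 ratio over all genes was 0.05. With levels shifted by the median ratio of well-detected genes, 539 were higher and 1042 lower, a share of 34.1%, and the median over all genes was −0.07. Igfbp3 (ENSMUSG00000020427), the main carrier of insulin-like growth factors in blood, stood at 481 CPM in Ctrl against 10586 CPM in AD, with a log2 ratio of 4.46 (4.43 to 4.49). The 15 highest ratios among genes with at least 100 CPM also included Galnt15, of the enzymes that start O-linked glycans, at 138 and 1251 CPM, the transcription factor Myc, at 136 and 894 CPM, and the metallothionein Mt1, at 1612 and 10212 CPM. Hsd11b1, the enzyme that reactivates glucocorticoids, stood at 27.02 and 192 CPM. The stress-response gene Trp53inp1 stood at 35.1 and 431 CPM, the matrix protease Mmp11 at 17.96 and 222 CPM, and lubricin (Prg4) at 7.61 and 132 CPM. The mitochondrial protein gene Chchd10 stood at 5.85 and 205 CPM, with a log2 ratio of 5.13 (4.85 to 5.43).

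The other genes among the 15 highest were Cxcl13, Ctla2a, Hs3st3b1, Papss2, Tmtc1 and Adarb1. Hs3st3b1 and Papss2, which act in the sulfation of heparan sulfate and in the supply of its sulfate donor, had log2 ratios of 3.45 and 3.23. Ctla2a, which resembles its neighbour Ctla2b so that reads could be split between them, stood at 16.2 and 399 CPM. Its log2 ratio, with 1 CPM added, was 4.54, and 2.40 with cells thinned to 2000 UMIs before the rule was applied. In AD, 92.4% of the thinned Dpp4+ fibroblasts had no Ctla2a UMI, and the 67 cells with most of it held all of its UMIs. Ctla2a was found in 50.2% of the thinned T cells and 56.8% of the endothelial cells of AD, and their part in its level was not tested. The 15 lowest ratios were those of 5 collagen chains, 3 keratins, 4 other matrix genes (Mfap4, Postn, Cilp and Lum), the surface protein gene Cd248, the leptin receptor Lepr and the prostaglandin receptor Ptgfr. Lepr stood at 174 CPM in Ctrl against 7.43 CPM in AD and Ptgfr at 101 and 4.34 CPM, whereas the other Pdgfra+ cells had Lepr at 215 and 86.1 CPM.

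**Figure D2:**
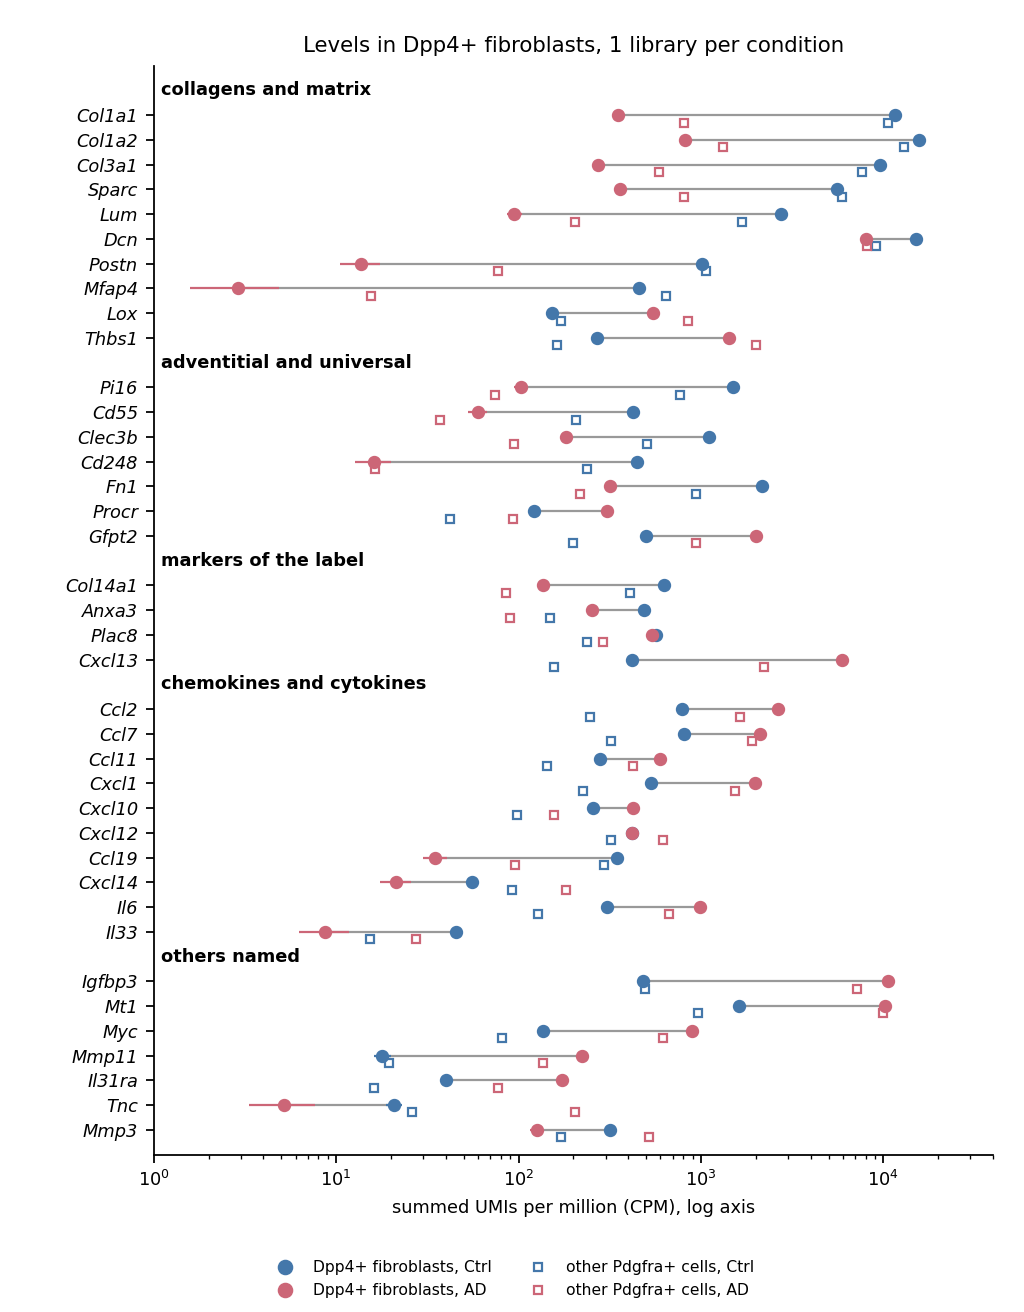
Levels (CPM, log axis) of named genes in Dpp4+ fibroblasts of Ctrl and AD (dots with 95% Poisson intervals) and in the other Pdgfra+ cells of each library (open squares). Collagen genes were lower and Cxcl13 and Igfbp3 were higher in AD in both classes of cells.

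Collagen mRNA was lower in AD Dpp4+ fibroblasts for most of the chains compared. Of the 44 collagen genes listed, 19 reached 20 CPM and were compared, and 16 of 19 were lower and 0 higher, with a median log2 ratio of −2.69, against 13.0% lower and 10.2% higher over all genes. Col1a1 (ENSMUSG00000001506, chr11:94936224-94953042 in GENCODE M21 on GRCm38) stood at 11520.1 CPM in Ctrl against 352 CPM in AD, with a log2 ratio of −5.03 (−5.10 to −4.96). Col1a2, the partner chain of type I collagen, stood at 15720.4 and 816 CPM, with a log2 ratio of −4.27 (−4.31 to −4.22), and Col3a1, of type III collagen, at 9539 and 272 CPM, with a log2 ratio of −5.13 (−5.21 to −5.05). Col15a1, of the zone next to basement membranes, was at 235 and 2.07 CPM. The other Pdgfra+ cells had lower collagen levels in AD as well, with log2 ratios of −3.70 for Col1a1, −3.28 for Col1a2 and −3.70 for Col3a1. A Col1a1 UMI was found in 98.1% of thinned Ctrl and 30.1% of thinned AD Dpp4+ fibroblasts, or 99.7% and 57.5% of unthinned ones. T cells, which should lack it, had 34.01% and 2.06% after thinning, or 54.5% and 6.504% before, lower in AD as well, and the part of free RNA in the levels was not tested.

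Genes of elastic fibres and other matrix proteins were lower in most cases, with 24 of 34 lower and 4 higher, at a median log2 ratio of −1.84, against 13.0% lower and 10.2% higher over all genes. Mfap4 (ENSMUSG00000042436), a protein of elastic fibres, stood at 457 and 2.89 CPM, with a log2 ratio of −7.30 (−8.17 to −6.56). Periostin (Postn), a matricellular protein, stood at 1008 and 13.6 CPM, and Sparc, a collagen-binding protein, at 5553 and 358 CPM. Lumican (Lum), which spaces collagen fibrils, stood at 2758 CPM in Ctrl and had a log2 ratio of −4.86. Decorin (Dcn), the most abundant proteoglycan of the dermis, stood at 15129.9 and 8040.3 CPM, with a log2 ratio of −0.91 (−0.93 to −0.90) that did not reach 2-fold. The 4 genes that were higher were Prg4, the thrombospondins Thbs1, at 271 and 1432 CPM, and Thbs2, at 582 and 1392 CPM, and the collagen cross-linking enzyme Lox, at 153 and 543 CPM. Matrix mRNA was thus lower for most proteins of the list but not for all. Genes of contraction and the dermal sheath were lower in 9 of 9 cases, and the reticular genes in 5 of 7, with Cilp, an inhibitor of growth factors in cartilage, at 331 and 7.85 CPM and dermatopontin (Dpt), a fibril-binding protein, at 2535 and 325 CPM. In the other Pdgfra+ cells, the lower genes of these 2 lists were 11 of 12 and 3 of 7, against 13.8% lower over all genes there.

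Most of the genes compared that mark adventitial and universal fibroblasts were also lower in AD, although every cell was chosen for Dpp4. Of 30 compared, 20 were lower and 2 higher, with a median log2 ratio of −1.52, against 13.0% lower and 10.2% higher over all genes. Pi16 (ENSMUSG00000024011), a peptidase inhibitor that defines these fibroblasts in many tissues, stood at 1507 CPM in Ctrl against 103 CPM in AD, with a log2 ratio of −3.87 (−4.00 to −3.74). A Pi16 UMI was found in 89.1% of Ctrl and 28.4% of AD Dpp4+ fibroblasts, or 74.4% and 12.9% after thinning, where T cells gave 6.599% and 0%. Fibronectin (Fn1) stood at 2149.6 and 316 CPM, fibrillin (Fbn1) at 1390.1 and 243 CPM, and the progenitor marker Cd34 at 1147 and 208 CPM. The 2 that were higher were Gfpt2, an enzyme of the hexosamine pathway, at 503 and 1997 CPM, and Procr, the receptor of protein C, at 121 and 307 CPM. In the other Pdgfra+ cells, where 13.8% of 7200 genes were lower and 7.47% higher, the list gave 14 lower and 3 higher of 27, so the lower levels were not seen in Dpp4+ fibroblasts alone.

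Several chemokine ligands were higher in the Dpp4+ fibroblasts of AD, and Cxcl13 reached the highest level among them. Of the CC ligands, 3 of 5 were higher and 1 lower, with a median log2 ratio of 1.08, and of the CXC ligands 3 of 6 were higher and 1 lower, with a median log2 ratio of 0.93. Over all genes compared, 10.2% were higher and 13.0% lower. In the other Pdgfra+ cells, 3 of 7 CC and 3 of 6 CXC ligands were higher. In Dpp4+ fibroblasts, only 1 CC ligand was higher with cells thinned to 2000 UMIs before the rule was applied. Of the 11 chemokine genes looked up, 8 had an entry in the RefSeq promoter table (GRCm38.p6), 300 bases around the start. Ccl2, Ccl7 and Ccl11, the 3 CC ligands that were higher in AD, had no entry and were not searched. The 8 entries were searched on both strands for TTCNNNGAA, a palindrome that STAT factors bind, and for the form with 4 free bases in place of 3. The 250 bases before the start are shown for Cxcl13, which had the highest level in AD, and for Cxcl14, the only 1 of the 8 with a match in its entry, shown in capitals.
Cxcl13, chr5:95956689-95956938, + strand: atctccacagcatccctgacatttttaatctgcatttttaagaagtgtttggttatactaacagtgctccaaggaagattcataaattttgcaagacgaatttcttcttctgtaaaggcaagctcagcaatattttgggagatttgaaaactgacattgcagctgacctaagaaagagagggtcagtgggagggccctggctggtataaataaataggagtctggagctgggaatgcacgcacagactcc
Cxcl14, chr13:56296552-56296801, - strand: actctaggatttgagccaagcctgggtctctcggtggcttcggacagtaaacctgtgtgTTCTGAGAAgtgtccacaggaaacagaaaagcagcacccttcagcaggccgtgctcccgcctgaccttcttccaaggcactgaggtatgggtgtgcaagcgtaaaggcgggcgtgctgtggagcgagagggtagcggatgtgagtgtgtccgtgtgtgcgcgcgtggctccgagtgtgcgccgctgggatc

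The Cxcl14 entry held TTCTGAGAA, beginning 191 bases before its start. No match of either form was found in the entries of Cxcl13, Cxcl1, Cxcl2, Cxcl10, Cxcl12, Ccl8 and Ccl19. Over all 32851 promoters of 300 bases, 8.30% held the form with 3 free bases, 6.95% that with 4, and 14.6% either. A match describes the sequence and says nothing of binding in these cells.

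Cxcl13 (ENSMUSG00000023078, chr5:95956951-95961068 in GENCODE M21 on GRCm38) had the highest level among the chemokines in AD, 5955 CPM. Cxcl1 stood at 532 CPM in Ctrl against 1972 CPM in AD, with a log2 ratio of 1.89 (1.85 to 1.93), and Cxcl2 at 57.3 and 127 CPM, 1.15 (1.01 to 1.29). Among the CC ligands, Ccl2, which attracts monocytes, stood at 788 and 2635 CPM, with a log2 ratio of 1.74 (1.71 to 1.78). Its neighbour Ccl7 stood at 810.0 and 2094 CPM, 1.37 (1.33 to 1.41), and Ccl11 (eotaxin), which attracts eosinophils, at 279.7 and 594 CPM, 1.09 (1.02 to 1.15). With cells thinned to 2000 UMIs before the rule was applied, the log2 ratios, with 1 CPM added, were 1.08 for Ccl2, 0.77 for Ccl7 and 0.84 for Ccl11, the last 2 short of 2-fold. Among cells of low immediate early and heat shock share, a choice made after seeing the data, they were 2.47, 2.00 and 1.43. Ccl11 also fell short of 2-fold with at least 2 Dpp4 UMIs per cell (0.98), with levels shifted by the median ratio (0.97) and, in choices made after seeing the data, with at least 2 of Col14a1, Anxa3 and Plac8 (0.94) or no keratinocyte marker (0.83). Cxcl2 fell short with at least 2 Dpp4 UMIs (0.83). For Ccl2, Ccl7 and Cxcl1 the ratios in the other Pdgfra+ cells were larger, at 2.72, 2.56 and 2.77, from lower Ctrl levels of 248, 322 and 226 CPM. Ccl19, which guides T cells and dendritic cells through Ccr7, was lower, at 349 and 34.9 CPM. Cxcl14 was lower too, at 55.8 and 21.3 CPM, while the other Pdgfra+ cells had 92.6 and 181 CPM. Cxcl10, a ligand of Cxcr3, stood at 255 and 422 CPM, short of 2-fold. Cxcl12, which retains leukocytes and progenitors through Cxcr4, stood at 420.2 and 421 CPM, with a log2 ratio of 0.00 (−0.07 to 0.07).

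**Figure D3:**
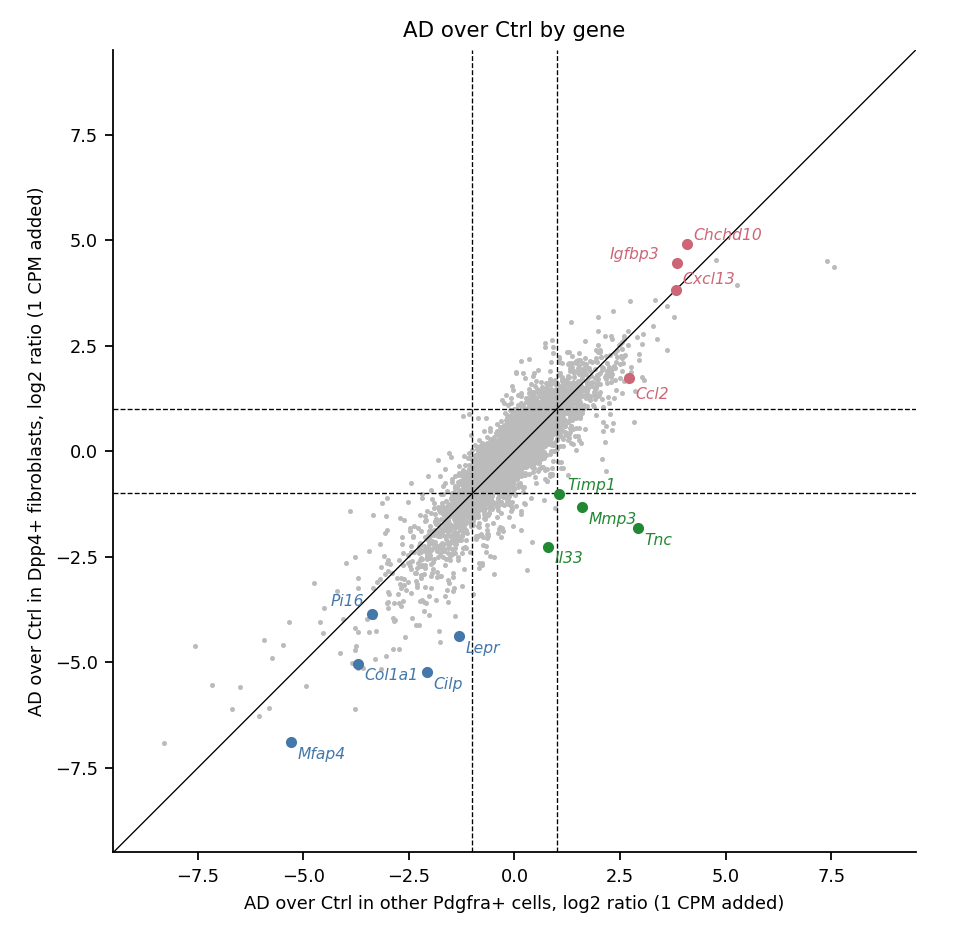
Log2 ratio of AD over Ctrl, with 1 CPM added, in the other Pdgfra+ cells (x axis) and in Dpp4+ fibroblasts (y axis), 1 point per gene, with 2-fold marked by dashed lines. Cxcl13 lay on the diagonal and Col1a1 below it. Without the added CPM, Cxcl13 had 3.83 in both, and Col1a1 had −5.03 in Dpp4+ fibroblasts and −3.70 in the others.

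Chemokines were spread unevenly over the Dpp4+ fibroblasts. Among 1866 Ctrl cells thinned to 2000 UMIs, Cxcl13 had a median of 0 UMIs per cell and a highest value of 38, and among 667 AD cells a median of 8 and a highest value of 125. In AD, 17.5% of the thinned cells had no Cxcl13 UMI and 32.4% had 16 or more, against 76.8% and 0.268% in Ctrl. Ccl2 was concentrated in fewer cells, and the tenth of the AD cells with most of it held 61.8% of its UMIs, against 34.1% for Cxcl13. Before thinning, a Ccl2 UMI was found in 10.5% of Ctrl and 21.5% of AD T cells and a Cxcl13 UMI in 1.59% and 15.04%, against 75.6% and 87.9% of AD Dpp4+ fibroblasts. At least 3 of Cxcl13, Ccl2, Ccl7, Cxcl1 and Cxcl10 were found together in 23.4% of thinned Ctrl and 63.1% of thinned AD Dpp4+ fibroblasts, and in 8.03% and 37.6% of the other Pdgfra+ cells.

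**Figure D4:**
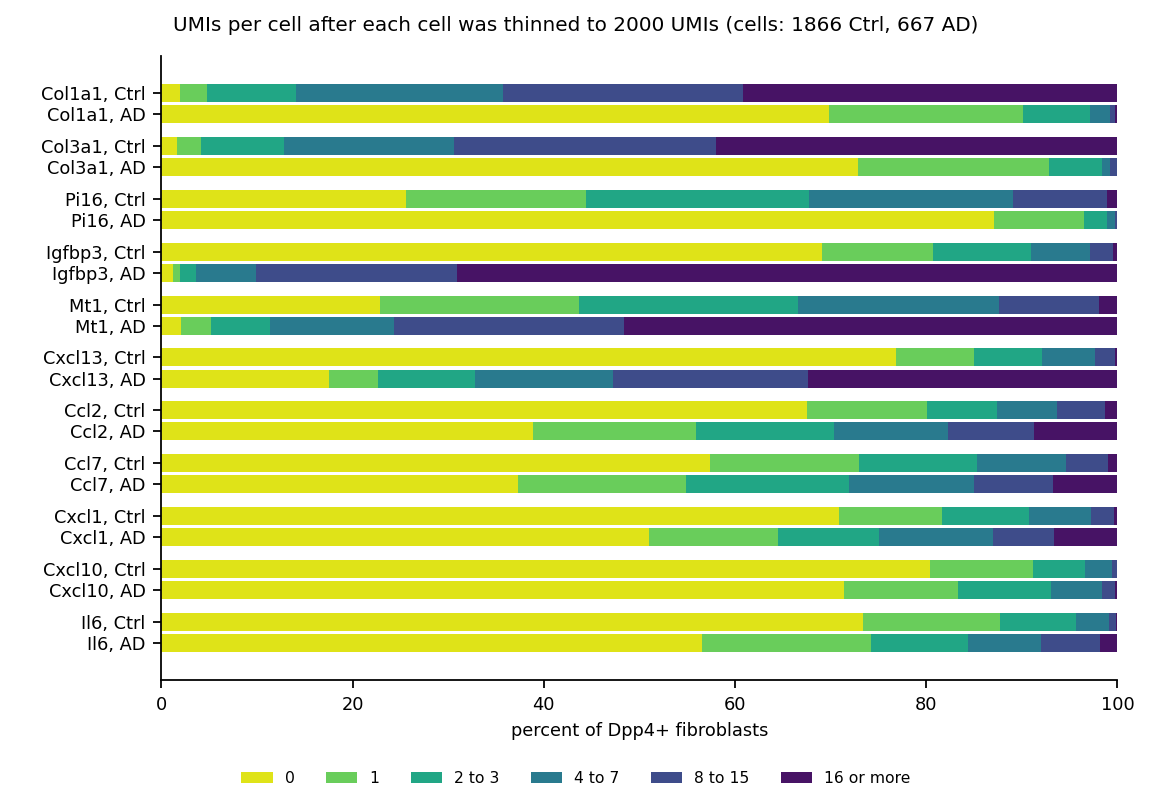
Share of Dpp4+ fibroblasts (%) by the number of UMIs of a gene after thinning to 2000 UMIs, in 1866 Ctrl and 667 AD cells. Medians were 8 for Cxcl13, 20 for Igfbp3 and 16 for Mt1 in AD, whereas 69.9% of AD cells had no Col1a1 UMI against 1.93% in Ctrl.

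Igfbp3, Mt1 and Col1a1 had different medians per cell in the 2 libraries. After thinning, Igfbp3 had a median of 0 UMIs in Ctrl and 20 in AD, with 1.199% of AD cells at 0. An Igfbp3 UMI was found in 2.54% of thinned Ctrl and 9.05% of thinned AD T cells, against 30.9% and 98.8% of Dpp4+ fibroblasts. A Mt1 UMI was found in 25.9% and 46.9% of these T cells, against 77.1% and 97.9% of Dpp4+ fibroblasts, and the part of free RNA in either gene was not tested. Col1a1 had quartiles of 5 and 28 UMIs in Ctrl and of 0 and 1 in AD, and Mt1 medians of 2 and 16. Among the Dpp4+ fibroblasts of Ctrl, the genes of largest variance over mean were Col1a2 (41.5) and Col1a1 (41.3), over 1503 genes ranked whose median was 1.104. The 10 highest in Ctrl also held the keratinocyte genes Krt10 (30.5) and Lgals7 (9.71) and, as the tenth, Ccl2 (9.37). In AD no collagen was among the 10 highest, which held Ccl2 (21.5), Cxcl1, Cxcl13, Ccl7 and Fos beside Malat1.

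Cytokine and receptor genes had smaller median ratios than the chemokines. Of the interleukins, alarmins and growth factors, 4 of 13 were higher and 4 lower, with a median log2 ratio of 0.36, against 13.0% lower and 10.2% higher over all genes. Il6 stood at 305 and 989.9 CPM, with a log2 ratio of 1.70 (1.64 to 1.75), and Vegfa, which drives vessel growth, at 90.7 and 225 CPM. The alarmin Il33 stood at 45.2 and 8.67 CPM, with a log2 ratio of −2.38 (−2.87 to −1.94), while the other Pdgfra+ cells had 15.3 and 27.5 CPM. Of the genes of type 2 and gp130 cytokine signalling, 6 of 21 were higher and 0 lower, with a median log2 ratio of 0.53. In the other Pdgfra+ cells, 10 of 22 were higher and 1 lower, with a median of 0.98, against 7.47% higher and 13.8% lower over all genes there. In Dpp4+ fibroblasts Socs3, a feedback inhibitor of gp130 signals, stood at 575 and 2769.7 CPM, 2.27 (2.23 to 2.30), and in the others at 449 and 2588 CPM. The oncostatin M receptor Osmr stood at 88.97 and 212 CPM in Dpp4+ fibroblasts, 1.25 (1.14 to 1.36). Il31ra, which pairs with Osmr to bind the itch cytokine Il31 and was named after its values had been seen, stood at 39.9 and 173 CPM, 2.12 (1.98 to 2.26). Il4ra, shared by the receptors of Il4 and Il13, stood at 144 and 208 CPM, 0.53 (0.43 to 0.64), short of 2-fold, whereas the other Pdgfra+ cells gave 1.70. Interferon response genes were lower in 8 of 22 cases and higher in 0, with the tetherin gene Bst2 at 214 and 41.9 CPM, and antigen presentation genes were lower in 6 of 15 and higher in 1, H2-Q4, which shares sequence with other H2 genes so that its count is uncertain.

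Over all genes 10.2% were higher and 13.0% lower, and the shares of higher genes in the lists of complement, proteases and TGF-β and BMP signalling lay near the former. The acute phase and metal binding genes were higher in 7 of 10 cases and lower in 1, at a median log2 ratio of 1.30. In the other Pdgfra+ cells, 9 of 13 were higher and 1 lower, at a larger median of 2.35, against 7.47% higher and 13.8% lower over all genes there. Mt1 in AD stood at 10212 CPM in Dpp4+ fibroblasts and 9886 CPM in the others. In Dpp4+ fibroblasts, Mt2 stood at 1227 and 4124 CPM and ceruloplasmin (Cp), a copper protein, at 81.8 and 290.4 CPM. The 1 that was lower in them was S100a4, at 610.5 and 60.7 CPM. In the IGF system 2 of 11 were higher and 8 lower, with a median log2 ratio of −1.52, so that Igfbp3 went the other way from Igf1, at 266 and 46.1 CPM, and Igfbp7, at 530.3 and 99.96 CPM. Of the complement genes, 1 of 10 were higher and 4 lower, with a median log2 ratio of −0.94, with C3 at 1844 and 856 CPM while its ratio in the other Pdgfra+ cells was 0.40. Of the proteases and inhibitors, 3 of 27 were higher and 7 lower, with a median log2 ratio of −0.25, with the lysosomal protease Ctsl at 718 and 1709.8 CPM and Serpinf1 at 628 and 141 CPM. Of the genes of Wnt signalling, 1 of 13 were higher and 8 lower, with a median log2 ratio of −1.25, and the secreted Wnt inhibitor Sfrp2 stood at 213 and 59.9 CPM. Of the genes of TGF-β and BMP signalling, 3 of 25 were higher and 7 lower, with a median log2 ratio of −0.47, with the BMP target Id3 at 615 and 2947 CPM and the follistatin-like gene Fstl1 at 2006 and 713 CPM. Of the prostaglandin and hyaluronan genes, 1 of 9 were higher and 3 lower, with a median log2 ratio of −0.49, and the 1 higher was the hyaluronan synthase Has1, at 969.9 and 1955 CPM. Has1 lay just past 2-fold, by less than Ccl11, which fell short of it with levels shifted by the median ratio. Preadipocyte genes were higher in 4 of 11 cases and lower in 2, with apolipoprotein D (Apod) at 895 and 4368 CPM and the adipogenic factor Cebpd at 895 and 2748 CPM. Their median log2 ratio was 0.43. In the other Pdgfra+ cells, 6 of 12 were higher and 1 lower, at a median of 1.13, and Apod reached 6048 CPM in AD.

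**Figure D5:**
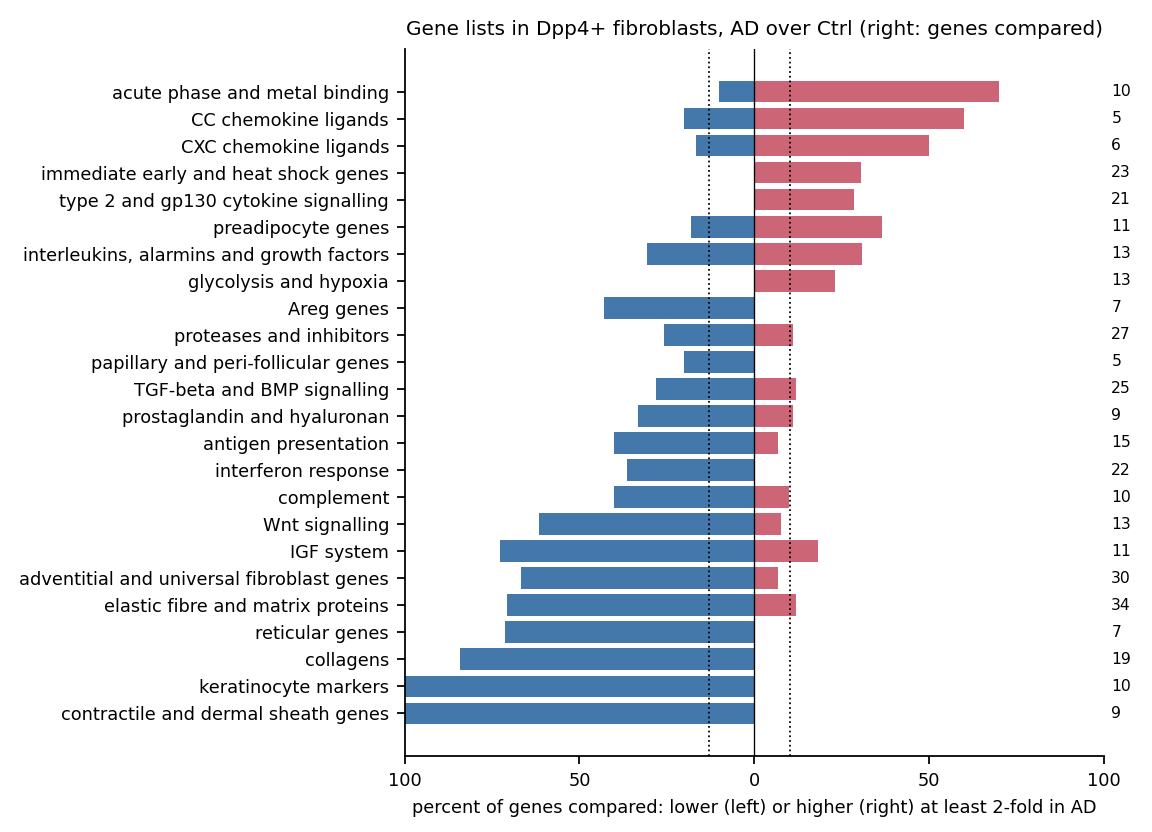
Share of the compared genes of each list (%) that were at least 2-fold lower (left) or higher (right) in AD Dpp4+ fibroblasts, with dotted lines at the shares over all genes, 13.0% and 10.2%. Contractile genes (9 of 9), keratinocyte markers (10 of 10) and collagens (16 of 19) had the largest shares on the lower side, and acute phase and metal binding genes (7 of 10) on the higher side. In the other Pdgfra+ cells, not shown, these were 11 of 12, 11 of 11 and 18 of 23 lower, and 9 of 13 higher.

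Immediate early and heat shock genes, which tissue digestion can also induce, were higher in 7 of 23 cases and lower in 0, against 13.0% lower and 10.2% higher over all genes. Their median log2 ratio was 0.61. In the other Pdgfra+ cells, 8 of 23 were higher and 0 lower, at a median of 0.67, against 7.47% higher and 13.8% lower over all genes there. In Dpp4+ fibroblasts, Fos stood at 3510.2 and 7720.0 CPM and Junb at 2584 and 6403 CPM. Hspa1a, nearly identical to Hspa1b and therefore uncertain, stood at 1959 and 2180.3 CPM in them. With only the cells whose summed share of these genes lay below the median, a choice made after seeing the data, 724 genes were higher and 838 lower. This kept 1115 Ctrl but 186 AD cells, and single ratios moved, with Ccl2 at 2.47 in place of 1.74 and Mmp3 at −0.46 in place of −1.33, with 1 CPM added. Mitochondrial UMIs made up 2.16% in Ctrl and 1.01% in AD, and UMIs of ribosomal proteins 13.3% and 9.63%.

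Keratinocyte markers differed between the libraries as well. Of the 12 markers, the 10 that could be compared were all lower in AD (13.0% over all genes), none of the 12 was at 0 in either library, and their summed level was 1164 CPM in Ctrl and 125 CPM in AD (2108 and 282 in the other Pdgfra+ cells). The most abundant was Krt10 in Ctrl, at 367 CPM, and Krt14 in AD, at 30.4 CPM. Krt77, another keratin, had 2300 UMIs (119 CPM) in Ctrl and 0 in AD, where 3 counts would be 0.62 CPM, and was at least 192-fold lower. Among Dpp4+ fibroblasts without a UMI of any of the 12 markers (276 in Ctrl and 452 in AD), a choice made after seeing the data, 756 genes were higher and 883 lower. Leukocyte markers summed to 46.8 and 57.4 CPM over 15 genes, with Lyz2 the most abundant in Ctrl and Cd68 in AD, and 2 of them at 0 in each library. Endothelial markers summed to 63.9 and 76.00 CPM over 8 genes, most of it Kdr (47.2 and 59.5 CPM), with 1 marker at 0 in each library. Markers of pericytes and smooth muscle summed to 89.6 and 34.5 CPM, led by Myh11 in Ctrl and Rgs5 in AD, with none of 7 at 0, and those of Schwann cells and melanocytes to 128 and 95.8 CPM, led by Dct in Ctrl and Mbp in AD, with 1 of 9 at 0 in AD. Erythroid markers, led by Hbb-bs, summed to 718 and 343 CPM over 5 genes, none at 0. Skeletal muscle (6.78 and 6.61 CPM), mesothelial (7.45 and 0.413 CPM) and adipocyte markers (0.8798 and 8.47 CPM) were low. No doublet caller was run, the rule itself leaves out cells with Ptprc or Pecam1, and the part of these markers in the results was not tested.

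Within each library, the Dpp4+ fibroblasts were set beside the other Pdgfra+ cells, 3447 in Ctrl and 4198 in AD. Both classes were split by the genes of the rule, so these values describe the choice. In Ctrl, 169 of 6985 genes were higher in Dpp4+ fibroblasts (2.42%) and 372 lower (5.33%), with a median log2 ratio of −0.15. Other rules for the cells gave from 49 to 277 higher genes in Ctrl, and with at least 100 CPM 89 were higher and 64 lower. In AD, 92 of 6432 were higher (1.43%) and 240 lower (3.73%). Of 5909 genes compared in both libraries, 143 were higher in Ctrl and 71 in AD, and 49 were higher in both, or 34.3% and 69.0% of each list. Of the same genes, 143 were lower in Ctrl and 196 in AD, and 72 in both, or 50.3% and 36.7%. Among the highest ratios in Ctrl were those of the phospholipase Pla1a (2.08, interval 2.00 to 2.16), Smpd3 (1.80, interval 1.74 to 1.86) and Cmah (1.77, interval 1.67 to 1.86), which makes a sialic acid. Among those in AD were the ratios of Procr (1.72, interval 1.63 to 1.81), Anxa3 (254 against 90.03 CPM), Cxcl10 (1.43, interval 1.36 to 1.51) and Cxcl13 (1.42, interval 1.40 to 1.44). The cyclooxygenase gene Ptgs2 stood at 634 CPM in Dpp4+ fibroblasts and 208 CPM in the others in Ctrl, and at 1065 and 474 CPM in AD. The decoy receptor of Cxcl12, Ackr3, stood at 442 and 158 CPM in Ctrl and 606 and 272 CPM in AD, and the angiopoietin receptor Tek, otherwise known from endothelium, at 101 and 34.02 CPM in Ctrl and 70.2 and 31.3 CPM in AD.

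The lowest ratios were those of genes of several kinds. In Ctrl they included the Wnt inhibitor Wif1 (−3.43, interval −3.56 to −3.31), the Wnt enhancer Rspo3 (−3.42, interval −3.61 to −3.24) and Coch (−4.42, interval −4.69 to −4.17), beside the epidermal genes Crct1, Lor and Flg. With cells that held a UMI of the markers of other cell types left out, these 3 were no longer 2-fold lower, and their log2 ratios, with 1 CPM added, went from −4.46 to −0.15 for Crct1, from −3.58 to −0.37 for Lor and from −3.16 to −0.63 for Flg. In AD they included Coch (−5.63, interval −5.94 to −5.34), the fibril-binding fibromodulin (Fmod; −5.65, interval −6.34 to −5.03), Mgp, an inhibitor of calcification (−4.02, interval −4.24 to −3.81), and the lysophospholipase Enpp2 (−4.21, interval −4.57 to −3.87). Aspn, a proteoglycan, stood at 334 CPM in Dpp4+ fibroblasts and 285 CPM in the others in Ctrl, but at 46.7 and 350.5 CPM in AD. Haptoglobin (Hp) and the complement factor Cfd, both near 0 in Ctrl, reached 17.6 and 21.9 CPM in AD Dpp4+ fibroblasts and 248 and 216 CPM in the others. In AD, 6 of 15 collagen genes and 13 of 33 matrix genes were lower in Dpp4+ fibroblasts than in the other Pdgfra+ cells. In Ctrl these were 5 of 23 and 3 of 34. Over all genes compared, 3.73% were lower in AD and 5.33% in Ctrl, and the matrix genes of Ctrl lay near the latter. In Ctrl, Col1a1, Col1a2 and Col3a1 stood slightly above the other Pdgfra+ cells, with log2 ratios of 0.13, 0.28 and 0.32.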

How the data were processed

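Dorsal skin of 1 Ctrl and 1 AD library was sequenced with 10x 3′ chemistry. The authors deposited raw UMI counts per gene and barcode, made with Cell Ranger on mm10, without normalization. The matrix headers name version 5.0.0, the submitters' processing notes list Cell Ranger 3.1.0 and Seurat 5.0, and the methods name a further version. The files hold 33904 genes, and for 36 symbols listed more than once the identifier with more UMIs was used for the levels. There were 12598 barcodes with 125184653 UMIs in Ctrl and 8778 with 76106062 in AD. The filter of 200 to 6000 genes and at most 10% UMIs of 13 mitochondrial genes kept 11399 and 8179 cells.

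The members and the 35 gene lists were chosen with earlier results of these data known. Of the lists, 1 gene was not in the files. UMIs were summed per class and library and scaled to CPM. Intervals are exact Poisson for levels, conditional binomial for ratios and Clopper-Pearson for shares, all at 95%. Genes had to reach 20 CPM, and 1 CPM was added for counting genes past 2-fold, for medians over genes and for ratios under alternatives or so marked, but not for ratios printed with an interval or the other ratios of single genes. For shares of cells, each cell was thinned to 2000 UMIs (seed 1). With 1 library per condition no test was run. Named genes were the 15 highest and 15 lowest ratios of AD over Ctrl and the 10 highest and lowest against other Pdgfra+ cells with at least 100 CPM, the 10 most variable, and examples from the lists. Exceptions are said to have been named after their values were seen. In counts simulated for 6211 genes with 200 changed, all 200 and none of the others were called, and the interval held the true ratio for 94% of the changed genes. These counts were drawn with Poisson counting error alone, and every planted change was larger than 2-fold. The simulation therefore checks the code and cannot speak for smaller changes or for variation between cells or libraries. For each count, 12 alternatives were tried as planned, and 3 were added for the counts of AD over Ctrl after seeing the data. Python 3.11.15, numpy 2.4.6, scipy 1.17.1, pandas 2.3.3 and matplotlib 3.10.9 were used. The promoters came from RefSeq.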

Additional observations from a re-analysis of the deposited data

Results flagged for a closer look

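Of 6606 genes compared between AD and Ctrl both in Dpp4+ fibroblasts and in the other Pdgfra+ cells, 3 were lower in AD in the former and higher in the latter, and 0 the other way round, while 370 were higher and 597 lower in both. These 3 genes were picked after their values had been seen, and the difference between the classes was not tested, since each condition has 1 library. The glycoprotein tenascin C (Tnc) had a log2 ratio, with 1 CPM added, of −1.82 in Dpp4+ fibroblasts and 2.92 in the others. Its level was 20.8 CPM in Ctrl and 5.16 CPM in AD Dpp4+ fibroblasts, and 26.00 and 203 CPM in the others. With all deposited barcodes its ratio in Dpp4+ fibroblasts was 0.33, so its direction there depended on the cell filter, and among cells with at least 2 of Col14a1, Anxa3 and Plac8 it was −0.77, short of 2-fold. The ratios that follow also include 1 CPM. The matrix protease Mmp3 had a log2 ratio of −1.33 in Dpp4+ fibroblasts, at 317 and 126 CPM, and 1.60 in the others, at 170.1 and 519 CPM. The protease inhibitor Timp1 had −1.02, at 58.8 and 28.5 CPM, and 1.05 in the others, at 44.3 and 92.9 CPM. Among cells of low immediate early and heat shock share, an alternative added with the values known, the log2 ratio in Dpp4+ fibroblasts was −0.46 for Mmp3 and −0.44 for Timp1, both short of 2-fold. Timp1 lay just past 2-fold and fell short of it under most changes of the cells taken: −0.84 with all deposited barcodes, −0.90 with at least 2 Dpp4 UMIs, −0.98 without cells holding markers of other cell types, −0.81 without those holding keratinocyte markers, −0.55 with at least 2 of the 3 markers and −0.24 with cells thinned before the rule. With 10 CPM added it was −0.84.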

How the results depend on the processing

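The counts of genes past 2-fold depended on the filter on low values and, in Ctrl, on the rule for the cells. With at least 100 CPM, AD over Ctrl gave 299 higher and 291 lower genes, and without a filter 1361 and 2193. Dpp4+ fibroblasts against other Pdgfra+ cells gave 89 higher and 64 lower genes in Ctrl and 25 and 61 in AD with at least 100 CPM, and without a filter 1234 lower in Ctrl and 207 higher and 823 lower in AD. With 10 CPM added in place of 1, 462 genes were higher in AD, 93 higher than in other Pdgfra+ cells in Ctrl and 48 in AD. In Ctrl, the genes above other Pdgfra+ cells numbered 264 with at least 2 Dpp4 UMIs, 49 with no UMI of the genes of other subsets and 277 with cells thinned to 2000 UMIs before the rule. In AD they numbered 146 with all deposited barcodes. The remaining choices of cell filter, gate, summing and scaling moved these counts by less than 1.5 times. Among cells with at least 2 of Col14a1, Anxa3 and Plac8, an alternative chosen after seeing the data, 662 genes were higher and 881 lower in AD. Of the 70 ratios of genes named by rank, 0 changed direction under the 10 other settings for which they were recomputed, which leave out the filters on low values and the 3 alternatives chosen after seeing the data. However, the ratio (not its log) moved by over 1.5 times in 33 cases with cells thinned before the rule, 22 with 10 CPM added, 12 with the mean of each cell's CPM, 10 with at least 2 Dpp4 UMIs, 9 without markers of other cell types, 6 without the genes of other subsets and 1 with all deposited barcodes. Thinning moved the log2 ratio, with 1 CPM added, of Smpd3 in Ctrl from 1.79 to 3.13, Hp in AD from −3.74 to −1.21 and Cfd from −3.24 to −1.69, all against other Pdgfra+ cells, and Cilp between the libraries from −5.23 to −3.50. It also left Tmod1 (0.94) and ENSMUSG00000121069 (0.99) short of 2-fold above other Pdgfra+ cells in AD. The order of the ratios changed as well: Chchd10, first between the libraries at 4.91 with 1 CPM added, had 4.48 with all deposited barcodes, below Ctla2a at 4.74. No paired analysis was possible because each group has 1 library and no test was made. Depth limits low genes: 3 counts stand for 0.155 CPM in Ctrl and 0.62 CPM in AD Dpp4+ fibroblasts. Differences between mice, between libraries and between treatments cannot be told apart here.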

Other observations

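The remaining lists were short, with 2 to 13 genes compared, beside 10.2% higher and 13.0% lower over all genes. Of the glycolysis and hypoxia genes, 3 of 13 were higher and 0 lower, with a median log2 ratio of 0.10, and the hexokinase Hk2 stood at 65.6 CPM in Ctrl against 167 CPM in AD Dpp4+ fibroblasts, with the mitophagy gene Bnip3 at 33.1 and 133 CPM. Of the cell cycle genes, 1 of 4 were higher and 1 lower, with a median log2 ratio of −0.62, with the replication clamp Pcna at 65.99 and 159.6 CPM. Of the vitamin D response genes, 0 of 2 were higher and 0 lower, with a median log2 ratio of −0.03; MC903 is a ligand of the vitamin D receptor. Of the Areg genes, 0 of 7 were higher and 3 lower, with a median log2 ratio of 0.00, and of the papillary and peri-follicular genes 0 of 5 were higher and 1 lower, with a median log2 ratio of −0.29. Gpx3, an extracellular glutathione peroxidase among the Areg genes, stood at 1166 and 1402 CPM, while its ratio in the other Pdgfra+ cells was 1.00. The gene ENSMUSG00000121069, listed without a symbol, stood at 532 and 3034 CPM.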
